A study of Mus musculus with 21 samples.

Results

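The libraries described here are the 6 of 21 that the titles give as Nur77-KO at 4 h or 18 h, with numbers 2, 3 and 4 at each time. They hold poly(A) RNA of bone marrow-derived macrophages, cells grown from marrow of the femur and tibia over 7 days in medium conditioned by L929 fibroblasts, a source of the macrophage growth factor Csf1. The donors were male C57Bl6/J mice aged 6 to 12 weeks, and lipopolysaccharide (LPS) was given at 100 ng/ml for 4 h or 18 h. Their genotype tag is "cre". The sources used here do not give whether Nur77 was deleted in the germline or only in some cells, and the libraries are called labelled KO. The study also holds 3 labelled-KO libraries at 0 h, which were left untreated, and 4 wild-type (WT) libraries, tagged "wt", at each of the 3 times. Nothing in the labels ties a number to a mouse of its own, and the p-values here therefore rest on a spread between libraries that may be technical.

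LPS is a lipid of the outer membrane of Gram-negative bacteria. Macrophages sense it through Toll-like receptor 4 (TLR4) and its partners CD14 and MD-2. The adaptor Myd88 leads from the receptor to NF-kB and the first cytokines, and the adaptor Trif leads to Irf3, to interferon beta and through its receptor to a second set of genes. NF-kB also raises its own inhibitors, such as the deubiquitinase A20 and the IkB proteins, and later in the response macrophages make interleukin 10, the interleukin 1 receptor antagonist and enzymes of repair and antioxidant defence. Nur77, the nuclear receptor encoded by Nr4a1, is an immediate early gene of this response. Comparing 18 h with 4 h within 1 genotype therefore asks how the early phase of LPS gives way to the late phase in cells labelled as lacking Nur77.

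Counts assigned to genes totalled 12301504 to 21649810 in the 6 libraries. The first principal component of their log2 CPM (CPM, a gene's counts over the scaled library size) held 78.6% of the variance and separated 4 h from 18 h. The second held 10.2% and set number 2 lowest and number 4 highest at both times. Nr4a1 (NM_010444, chromosome 15, 101253902 to 101274795 on mm10), the targeted gene, stood at 12.4, 12.2 and 12.4 CPM at 0 h, at 0.531, 0.869 and 1.21 CPM at 4 h and at 2.96, 2.1 and 3.48 CPM at 18 h, and rose between 4 h and 18 h (log2 fold change 1.64, SE 0.53, adjusted p = 0.01). The sources used here do not give which exons were deleted, and these reads do not check the deletion. All 14 macrophage markers tested were present in each library, with a sum of 26937 to 29584 CPM at 4 h and 19724 to 20889 CPM at 18 h. The stromal and fibroblast markers (18 of 21 tested) varied more within a time than between times. Their mean log2 CPM was 1.72, 2.85 and 4.92 at 4 h and 1.52, 3.42 and 5.24 at 18 h for numbers 2, 3 and 4, and 1 rose (Dcn) and 1 fell (Pdgfrb), against 3 higher without number 4 at 4 h and 4 higher and 3 lower with the mean of these markers as a covariate. Dcn was not called without number 2 at 4 h (1.52), number 3 at 4 h (1.79) or number 4 at 18 h (1.02). Among lineage-defining genes, Cd3e of T cells, Ncr1 of NK cells, Mcpt8 of basophils and Gata1 of erythroid and mast cells reached at most 0.142 CPM in any of the 6 libraries, and Epx of eosinophils and Hba-a1 of erythroid cells were at 0. Of 15 T, B and NK cell markers 3 were tested and 1, the kinase Lck, fell (-5.78). The members in the table summed to 22.7 to 37.4 CPM at 4 h and 2.0 to 4.69 CPM at 18 h. Of 18 mast cell, basophil, eosinophil and erythroid markers 1, Siglecf, was tested and fell (-1.45), and it is named after its values were seen. Among 12 dendritic cell markers 7 were tested and 4 fell, against 1 with a stricter filter (5 CPM in 3 libraries) and 2 with the 6 libraries alone. Tcf4, which is also in the macrophage lineage list, was among the falls. The members in the table summed to 703.6 to 778.5 CPM at 4 h and 192 to 218.9 CPM at 18 h. Of those not tested the highest was Zbtb46 at 1.38 CPM, and Flt3 reached 0.0876 CPM at most. Of 12 endothelial markers 6 were tested. Cdh5 (2.18) and Pecam1 (3.30) rose and 4 fell, Sele and Flt1 among them. All members in the table summed to 183.3 to 215.2 CPM at 4 h, of which Sele gave 102, 121 and 132 CPM, and to 60.2 to 68.6 CPM at 18 h. The part of these markers in the results was not tested. In bulk RNA, fewer cells of a type and less RNA per cell cannot be told apart.

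Between 4 h and 18 h, genes of the early NF-kB response fell in the labelled-KO macrophages, from the cytokine Tnf (13.5-fold lower) to the costimulator Cd40, though most stayed above 0 h. Of the interferon-stimulated genes 19 of 35 were not called in the fit of all libraries. The libraries of the 2 times still did not overlap for 11 that were higher and 15 that were lower at 18 h. The rises among abundant transcripts were led by the acute phase protein Saa3, the ferritin heavy chain Fth1, the matrix protein Thbs1 and the interleukin 1 receptor antagonist Il1rn. Of 12529 genes tested with edgeR's quasi-likelihood test, 65.4% were called. Of these genes 4168 (33.3%) were higher and 4028 (32.1%) lower at 18 h at a Benjamini-Hochberg adjusted p under 0.05, and 4333 were not called. At least 2-fold changes were called for 2180 genes upward (17.4%) and 2043 downward (16.3%). The 3 libraries at 18 h all lay above the 3 at 4 h for 4218 genes (33.7%) and all below for 4159 (33.2%). The median log2 fold change over all genes was 0.02, and it was 0.13 with upper-quartile scaling, under which 4680 genes were higher and 3564 lower. Against this background a list of genes with a share of calls near 33.3% higher and 32.1% lower does not stand apart from the rest. Against 0 h 73.0% of the same genes were called at 18 h, 34.5% higher and 38.5% lower, and 75.0% at 4 h, 33.5% higher and 41.5% lower, and these comparisons share libraries with the one described here.

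**Figure D1:**
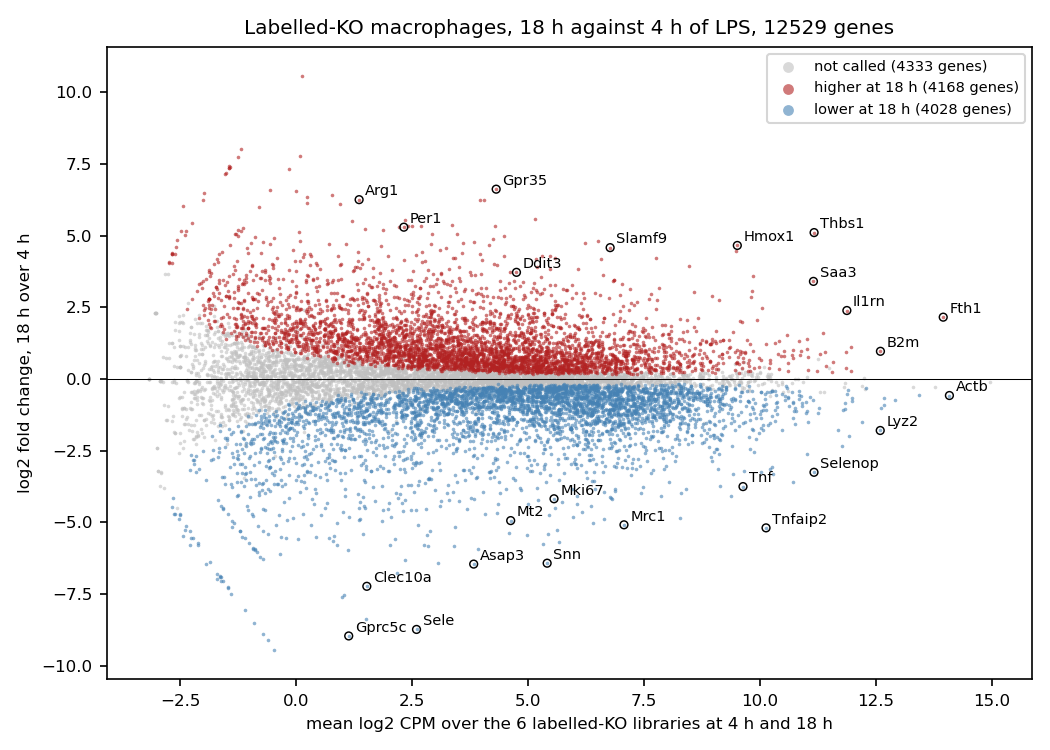
Each point is 1 of 12529 genes in the labelled-KO libraries, with the mean log2 CPM of the 6 libraries at 4 h and 18 h on the x axis and the log2 fold change of 18 h over 4 h on the y axis. Red points were called higher and blue points lower, and the labelled genes show large changes among abundant transcripts in both directions, such as Thbs1 at 5.10 and Tnfaip2 at -5.19.

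The deepest falls were in genes that LPS had induced at 4 h and that were nearly gone at 18 h, and in genes of resting macrophages. Sele (NM_011345, chromosome 1, 164039614 to 164058487 on mm10), which encodes the adhesion molecule E-selectin, stood at 102, 121 and 132 CPM at 4 h and 0.261, 0.613 and 0 CPM at 18 h. At 0 h it held 0, 0 and 0.037 CPM, so a peak at 4 h had nearly vanished by 18 h (log2 fold change -8.73, SE 0.38, adjusted p = 2.3e-14). Gfi1, a transcriptional repressor, went the same way at 18.2, 24.9 and 21.2 CPM at 4 h and 0.261, 0 and 0.0711 CPM at 18 h. Snn, which encodes the small membrane protein stannin, held 414, 366 and 405 CPM at 4 h and 5.31, 3.24 and 5.19 CPM at 18 h and fell below its 0 h level of 7.84, 6.41 and 7.85 CPM. Plagl1, a zinc finger factor, fell by 6.77 on the log2 scale, Tmem200b by 7.59, Col27a1, a fibrillar collagen, by 6.31, Apol7c by 6.43, Asap3 by 6.45 and Steap4, a metalloreductase, by 5.97. Apart from Snn, each of these genes was under 1 CPM in every 0 h library.

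Gprc5c, B3gnt7 and Clec10a were already expressed without LPS and were lost at 18 h. Gprc5c, an orphan receptor, held 32.1, 26.1 and 26.7 CPM at 0 h and 31.7, 26.3 and 32.7 CPM at 4 h and 0, 0.0876 and 0.0711 CPM at 18 h. Only 2 counts were left at 18 h, against 1053 at 4 h, a ratio of 567 with a 95% counting interval of 157 to 4690. Clec10a, a galactose-binding lectin of alternatively activated macrophages, stood at 84.4, 61 and 53.3 CPM at 0 h and at 26.4, 28.8 and 32.4 CPM at 4 h and 0.0871, 0.175 and 0.284 CPM at 18 h (log2 fold change -7.23, SE 0.3, adjusted p = 1.1e-14). B3gnt7, a glycosyltransferase, rose from 6.41, 7.14 and 5.89 CPM at 0 h to 46.6, 33 and 34.4 CPM at 4 h and was at 0.0871, 0.0876 and 0.142 CPM at 18 h.

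Most of the largest rises were of genes that had gone down at 4 h and came back. Tmem104 held 121, 137 and 128 CPM at 0 h, then 6.05, 4.46 and 4.85 CPM at 4 h and 247, 231 and 258 CPM at 18 h (log2 fold change 5.59, SE 0.11, adjusted p = 6.0e-19). Cd300lb, an activating receptor of myeloid cells, held 227, 233 and 235 CPM at 0 h and 1.7, 1.52 and 1.47 CPM at 4 h and 61, 69.1 and 60.7 CPM at 18 h, so it recovered in part. Arhgap27, a GTPase-activating protein, passed its 0 h level of 14.9, 16.3 and 14.7 CPM, with 1.81, 1.52 and 1.85 CPM at 4 h and 142, 111 and 147 CPM at 18 h. Ccdc125 (6.11) and Rims3 (6.43) followed the same course. Rhov, a small GTPase, had no counts at all in the 3 libraries at 4 h and 10.3, 9.9 and 11.4 CPM at 18 h, a ratio of 121 with the 4 h group set to 3 counts in all, or at least 97.9-fold higher at the lower counting limit. Its 0 h values were 1.01, 1.72 and 1.78 CPM.

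Other large rises went far beyond the 0 h level. Gadd45g, a stress-induced growth arrest gene, held 1.85, 1.72 and 1.67 CPM at 0 h and 2.97, 1.74 and 4.4 CPM at 4 h and 125, 121 and 141 CPM at 18 h (log2 fold change 5.33, SE 0.23, adjusted p = 1.6e-14). Gpr35, a receptor for tryptophan metabolites and other ligands, held 16.8, 9.81 and 12 CPM at 0 h and 2.23, 1.85 and 1.85 CPM at 4 h and 174, 160.5 and 244 CPM at 18 h (log2 fold change 6.62, SE 0.33, adjusted p = 2.2e-13). Slamf6, a homophilic immune receptor, went from 1.17, 0.761 and 0.956 CPM to 40.5, 32 and 45.2 CPM, and the related Slamf9 from 18.7, 30.6 and 18.9 CPM to 596, 449.5 and 572 CPM. Fhad1 and the stress kinase Plk3 rose by 5.56 and 5.51 on the log2 scale.

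Among abundant transcripts, the greatest gains in CPM were in Fth1, Thbs1, Il1rn, Saa3, B2m and Hmox1, and the greatest losses in Lyz2, Actb, Tnfaip2, Selenop, Clic4 and Gbp5. Fth1 (NM_010239, chromosome 19, 9980600 to 9985111 on mm10), which encodes the iron-storing ferritin heavy chain and has many processed copies in the genome, stood at 7711, 7384 and 7511 CPM at 4 h and 30835, 38646 and 31225 CPM at 18 h (log2 fold change 2.16, SE 0.11, adjusted p = 1.9e-13). Thbs1 (NM_001313914, chromosome 2, 118111876 to 118127133 on mm10), the matricellular protein thrombospondin 1, went from 352, 356 and 481 CPM to 11253, 14054 and 15569.5 CPM, 34.4-fold higher. Number 2 was lowest and number 4 highest for Thbs1 at both times, the order of the stromal markers in the same libraries, whose part in the result was not tested. With the stromal mean as a covariate its log2 fold change was 5.08. That mean varied more within a time than between times and could hardly move the value, so this is no test of their part.

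The losses had different histories. Tnfaip2 was at 190.4, 204 and 199 CPM at 0 h, 7056, 6528 and 6771 CPM at 4 h and 207, 173 and 177 CPM at 18 h, back at the untreated level (-0.09 against 0 h, adjusted p = 0.5). Lyz2, the lysozyme of macrophages, stood at 13014, 12525 and 12541 CPM at 0 h and fell from 11975, 10512 and 12117 CPM at 4 h to 3160.5, 3478 and 3337 CPM at 18 h (log2 fold change -1.79, SE 0.12, adjusted p = 1.6e-11). Selenop, a secreted selenium carrier, followed with 7237, 7007 and 7124 CPM at 4 h and 692, 892 and 660.3 CPM at 18 h, 9.52-fold lower. Clic4 (-2.33) and Actb, the cytoplasmic beta actin (-0.58, SE 0.09), had risen at 4 h and stayed above 0 h at 18 h. Actb is often used as a reference gene, and its 3 libraries at 18 h, 14909, 13550.2 and 14315 CPM, all lay below the 3 at 4 h, 21268, 21416 and 21053 CPM.

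**Figure D2:**
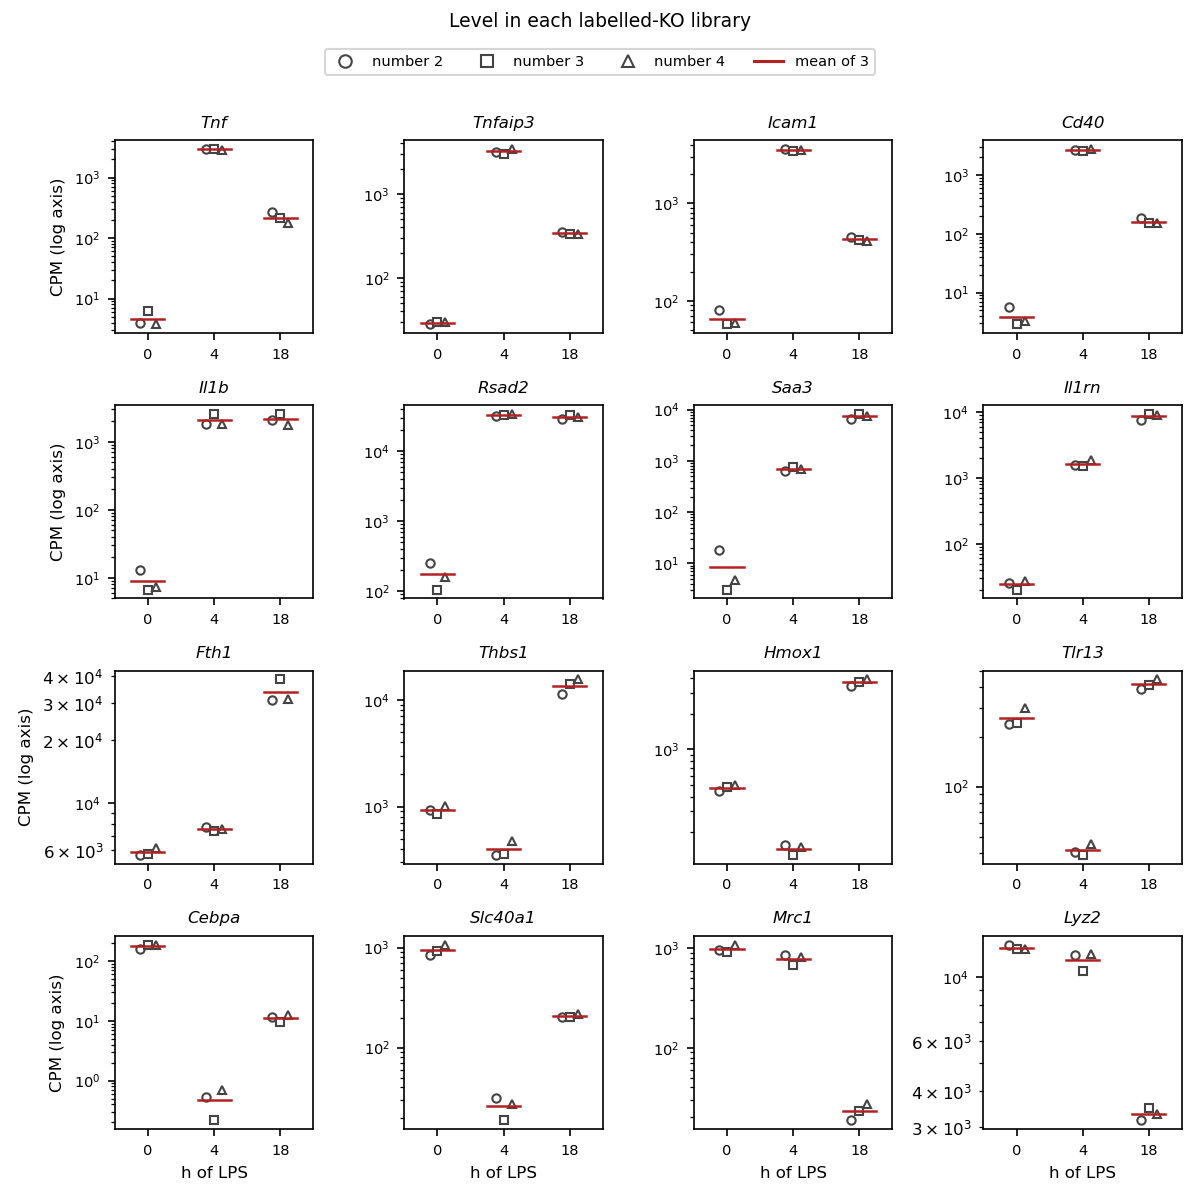
Each panel gives the CPM of 1 gene, on a log axis of its own, in the 3 labelled-KO libraries at 0, 4 and 18 h of LPS, with 1 symbol for each library number and a red line at the mean. Tnf, Tnfaip3, Icam1 and Cd40 peak at 4 h, Il1b and Rsad2 overlap between 4 h and 18 h, Saa3, Il1rn, Fth1, Thbs1 and Hmox1 are highest at 18 h, and Tlr13, Cebpa and Slc40a1 dip at 4 h.

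The receptors and adaptors of LPS sensing moved in both directions. Of 29 tested genes of Toll-like receptors, adaptors and IRAK kinases, 10 rose and 13 fell (median log2 fold change -0.10), against 33.3% and 32.1% of all genes. Tlr2, the receptor for bacterial lipoproteins, held 394, 355 and 391 CPM at 4 h and 92.5, 90.7 and 90.3 CPM at 18 h, and its partner Tlr6 fell as well (-1.67, SE 0.08). Tlr13, a receptor for bacterial ribosomal RNA, did the reverse, from 40.1, 38.7 and 45.3 CPM to 389.7, 413 and 444 CPM (log2 fold change 3.33, SE 0.11, adjusted p = 7.0e-16). Tlr4 itself, named here after its values were seen, went from 90.9, 96.5 and 102 CPM to 162, 190.3 and 185 CPM, beside 167, 160.3 and 220.1 CPM at 0 h (adjusted p = 0.88 for 18 h against 0 h). Myd88, the adaptor of most of these receptors, fell from 510.1, 485 and 520.2 CPM to 250.5, 202 and 254 CPM. The kinase Irak4 rose (1.38, SE 0.11), and so did Irak3, the inhibitory member known as IRAK-M, at 62.2, 64.3 and 61.4 CPM at 4 h and 214, 323 and 219 CPM at 18 h (log2 fold change 2.01, SE 0.22, adjusted p = 6.1e-08).

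Of the 20 NF-kB subunits and inhibitors 16 fell and 1, Irak3, rose, against 32.1% and 33.3% of all genes, with a median log2 fold change of -1.52. At 4 h 19 of them had been above 0 h, and 19 were still above 0 h at 18 h (medians 3.15 and 2.28). The subunit gene Rel went from 769.9, 836 and 782 CPM to 173, 188 and 163 CPM (log2 fold change -2.19, SE 0.1, adjusted p = 4.5e-14). Of the feedback inhibitors, Tnfaip3 and Tnip3 fell further than Rel. Tnfaip3 (NM_009397, chromosome 10, 19000910 to 19015410 on mm10), which encodes A20, held 3209.7, 2992 and 3459.8 CPM at 4 h and 357, 334 and 333 CPM at 18 h, and Tnip3, an A20-binding protein, held 2166, 2079 and 2330.1 CPM at 4 h and 207, 256 and 193 CPM at 18 h. Nfkbia, which encodes IkB alpha and is named here after its values were seen, fell by 1.79. Nfkbid, Cyld and Otulin were not called. The counts of 16 falls and 1 rise were the same under all 18 other settings of the analysis.

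Immediate early genes, which are switched on within minutes of many stimuli, showed no common direction, with 11 of 25 higher, 7 lower and a median of 0.16. Of all genes 33.3% were higher and 32.1% lower. The AP-1 gene Fos had gone down at 4 h and came back to above its 0 h level, at 35.4, 42.6 and 38.3 CPM, then 10.4, 12.2 and 11.3 CPM at 4 h and 78.4, 74 and 78.8 CPM at 18 h (log2 fold change 2.77, SE 0.16, adjusted p = 1.3e-12). Fosl1 and Egr1 rose by 3.26 and 2.16 on the log2 scale, and DESeq2 gave Egr1 a log2 fold change of 2.15 but no adjusted p. Nr4a3, the closest relative of the Nur77 gene, had the opposite course with 15.2, 22 and 15.9 CPM at 4 h and 0.871, 0.788 and 0.64 CPM at 18 h, and the phosphatase gene Dusp2 (-2.32) and the small Maf factor Maff (-2.50) fell as well. Among 11 regulators of cytokine mRNA decay 4 rose and 4 fell, near the shares of all genes. The mRNA-binding proteins Zfp36l1 (1.55, SE 0.22) and Zfp36l2 (1.28, SE 0.11) rose but stayed far below 0 h, when they stood at 337, 332 and 348 CPM and 252, 254 and 256 CPM. The RNase-like Zc3h12d rose (1.41), and Elavl1 (-0.82), Zc3h12c (-0.83) and Rc3h1 (-0.53) fell.

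Proinflammatory cytokines fell more often than they rose. Of 21 tested, 13 were lower and 3 higher (median -1.05), against 32.1% and 33.3% of all genes. Tnf (NM_013693, chromosome 17, 35199367 to 35202007 on mm10) held 2982, 2961 and 2869 CPM at 4 h and 268, 213 and 174 CPM at 18 h (log2 fold change -3.75, SE 0.21, adjusted p = 1.2e-12). Il12b, the shared subunit of interleukins 12 and 23, held 325, 456 and 393 CPM at 4 h and 32.2, 24.9 and 19.8 CPM at 18 h (log2 fold change -3.94, SE 0.32, adjusted p = 6.8e-10), and Il27 fell by nearly as much (-3.76, SE 0.18). Tnfsf9, the ligand 4-1BBL, fell by 5.43, from 210.3, 176 and 232 CPM to 5.92, 4.12 and 4.34 CPM. Il6 stood at 368, 562 and 411 CPM at 4 h and 80.8, 99.8 and 59.5 CPM at 18 h, lower by 2.48 but still far above 0.318, 0.0493 and 0.037 CPM at 0 h.

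Il1b (NM_008361, chromosome 2, 129364569 to 129371164 on mm10), which encodes interleukin 1 beta, was not called. Its values were 1823, 2532 and 1823 CPM at 4 h and 2094, 2552 and 1771 CPM at 18 h, and the groups overlapped, with number 3 highest at both times (log2 fold change 0.06, adjusted p = 0.84). The direction of that small difference turned without number 2 at 4 h, without number 4 at 4 h or without number 3 at 18 h. There were 3 cytokines that rose. Il18 went from 118, 135 and 125 CPM to 166, 173 and 147 CPM, Osm, which encodes oncostatin M, from 3.82, 3.04 and 3.32 CPM to 14.5, 9.72 and 15.1 CPM, and Csf3, the granulocyte growth factor, from 0.212, 0.109 and 0.51 CPM to 3.31, 3.24 and 4.98 CPM. The small rise of Il18 was not called without number 2 at either time, number 4 at 4 h or number 3 at 18 h (0.32 to 0.36).

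Inhibitory cytokines and signalling genes were split, with 7 of 19 higher and 7 lower, near the shares of all genes. Il1rn (NM_001039701, chromosome 2, 24336860 to 24351491 on mm10), the secreted antagonist of the interleukin 1 receptor, rose 5.23-fold beside Il1b, from 1548, 1509 and 1890.5 CPM to 7596, 9344 and 8949.5 CPM (log2 fold change 2.39, SE 0.17, adjusted p = 8.3e-11). Il10, the main anti-inflammatory cytokine of macrophages, held 10.9, 12.8 and 26.6 CPM at 4 h and 56.5, 41.2 and 61.2 CPM at 18 h (log2 fold change 1.62, SE 0.29, adjusted p = 4.0e-05), with number 4 the highest of its 4 h group. Tsc22d3, the glucocorticoid-induced GILZ gene, recovered from 2.23, 2.28 and 2.87 CPM to 26.2, 17 and 27.8 CPM, below its 0 h level. The cytokine signalling suppressors Cish (-4.54, SE 0.4) and Socs3 (-1.44, SE 0.21) fell, and so did the receptor chain Il13ra1 (-1.30, SE 0.15).

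Chemokines, which draw other leukocytes to the site, fell more often than they rose, with 14 of 20 lower and 5 higher (median -1.13), against 32.1% and 33.3% of all genes. Neutrophil-attracting members were among the losses. Cxcl1 held 20.5, 22.1 and 21 CPM at 4 h and 0.609, 1.4 and 1.14 CPM at 18 h, and Cxcl2 held 129, 162 and 126 CPM at 4 h and 27.7, 42 and 30.7 CPM at 18 h (log2 fold change -2.05, SE 0.16, adjusted p = 2.1e-10). Ccl24, an eosinophil chemokine, fell from 21.1, 16.7 and 17.4 CPM to 1.39, 1.05 and 0.711 CPM. Attractants of T cells and monocytes went both ways, since Cxcl9, Cxcl10 and Ccl8, named after their values were seen, fell by 1.23, 0.68 and 1.16 on the log2 scale. Cxcl9 was not called with DESeq2 (-1.26), and Cxcl10 was not called with upper-quartile scaling (-0.57), without number 4 at both times (-0.64) or without any 1 library other than number 2 at 4 h (-0.66 to -0.68). Ccl5 (NM_013653, chromosome 11, 83525778 to 83530518 on mm10) went from 2768, 2726 and 2600.5 CPM to 6160.5, 5201 and 6332 CPM (log2 fold change 1.13, SE 0.44, adjusted p = 0.028), a rise of 1.08 to 1.15 that was not called without any 1 of the libraries numbered 2 or 4, without number 3 at 4 h or with DESeq2. Ccl7 went from 586, 608 and 556 CPM to 1259, 1464 and 1346 CPM, and the interferon-induced Cxcl11 from 130.2, 128 and 172 CPM to 516, 490.4 and 535 CPM. Ccl2 and Ccl12, the other called rises, are named here after their values were seen (1.11 and 0.92).

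Of 15 chemokine and formyl peptide receptors, 7 rose and 4 fell, against 33.3% and 32.1% of all genes. Fpr1, the sensor of bacterial formyl peptides, had been induced at 4 h and rose again, at 31.4, 35.5 and 37.9 CPM at 4 h and 384, 407 and 364 CPM at 18 h (log2 fold change 3.46, SE 0.45, adjusted p = 7.2e-07). Ccr1, a receptor for Ccl5 and Ccl7, went from 70.3, 66 and 78.7 CPM, its 0 h level, to 447, 643 and 604 CPM (log2 fold change 2.98, SE 0.14, adjusted p = 6.3e-14). Cmklr1, the chemerin receptor, returned to 84.2, 95.6 and 88.6 CPM from 18.9, 21.4 and 15.3 CPM. The atypical receptor Ccrl2 (-1.56, SE 0.14), the fractalkine receptor Cx3cr1 (-1.25, SE 0.35) and the platelet-activating factor receptor Ptafr (-1.45, SE 0.14) fell, Cx3cr1 without a call when number 4 was left out at both times (-0.87).

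Interferon-stimulated genes as a list kept a median near 0, unlike the NF-kB genes. All 35 tested were above 0 h at 4 h and also at 18 h. Between 4 h and 18 h 6 rose and 10 fell, against 33.3% and 32.1% of all genes, and 19 were not called. The median log2 fold change of the list was -0.01. The count of rises was 12 when only the 6 libraries entered the fit. Under the 18 other settings rises numbered 6 to 14 and falls 9 to 15. The 3 libraries at 18 h all lay above the 3 at 4 h for 11 of the 35 and all below for 15. For all genes these shares were 33.7% and 33.2%. Many of these genes have close relatives that share sequence, so reads may be split between them. Rsad2 (NM_021384, chromosome 12, 26442743 to 26456452 on mm10), which encodes viperin, held 32139, 33256 and 33841 CPM at 4 h and 28917, 33032 and 30487 CPM at 18 h and overlapped between the times. Isg15, a ubiquitin-like modifier, held 951, 891 and 967 CPM at 4 h and 1182, 959.9 and 1197 CPM at 18 h and also overlapped, and Ifit1, which binds viral RNA, held 5089, 4742 and 5495 CPM at 4 h and 4306, 4164 and 4507 CPM at 18 h (adjusted p = 0.42). With the 6 libraries alone Isg15 (0.28) was called higher and Ifit1 (-0.21) lower. These 3 are named here after their values were seen.

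The rises were led by Isg20, an exonuclease, at 103, 102 and 122 CPM at 4 h and 366, 394 and 382 CPM at 18 h (log2 fold change 1.8, SE 0.26, adjusted p = 3.3e-06), Ifi44 (1.67, SE 0.38) and Bst2, which encodes tetherin, at 218, 219 and 237 CPM at 4 h and 773, 549.5 and 806 CPM at 18 h. The falls were led by the RNA sensor Ifih1, known as MDA5, at 3425, 3538 and 3610.4 CPM at 4 h and 1182, 1369 and 1207 CPM at 18 h (log2 fold change -1.49, SE 0.18, adjusted p = 1.9e-07), Parp14 (-1.49, SE 0.17) and Oasl2 (-0.94, SE 0.3), the last not called without number 4 at both times (-0.83). Of 18 guanylate-binding and immunity-related GTPases, which attack the vacuoles of intracellular microbes, 7 fell and 2 rose, against 32.1% and 33.3% of all genes, and 9 were not called. Gbp5 stood at 7674, 7654 and 7997 CPM at 4 h and 1988, 1943 and 1899 CPM at 18 h (log2 fold change -2.0, SE 0.22, adjusted p = 6.5e-08), and Ifi47 (-1.89, SE 0.23) and Gbp9 (-1.37, SE 0.23) followed. The 2 rises, Gbp10 and Tgtp1, depended on the setting. Gbp10 overlapped between the times, the count was 0 with DESeq2, and it was 1 without number 2 at either time, without number 3 at 4 h, without number 4 at 18 h or without number 4 at both times.

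The promoters of these genes can be read beside the 3 kinds of change. The interferon-stimulated response element (ISRE) is a DNA site bound by IRF factors, searched here as GAAA, any 2 bases and GAAA again, on both strands, in the 250 bases before and 50 bases after the start of each gene in RefSeq on GRCm38.p6. It was found in 3.46% of the 9984 tested genes that had a promoter in the table, in 14 of 27 interferon-stimulated genes (51.9%) and in 10 of 11 GTPases (90.9%). Of the 2 lists together it was found in 7 of 13 genes that fell, 12 of 18 not called and 5 of 7 that rose. The stretches below, 20 bases either side of the match, come from 2 genes that fell, 3 not called and 3 that rose, chosen after their values were seen. They are written 5′ to 3′ on the strand of the gene, with 1 ISRE match in capitals, the last in the window. It reads as its reverse complement where it begins with TTTC. Irgm1, Ifit1 and Bst2 had 2 matches in the window and Isg15 had 3, and their lower-case bases hold parts or all of the others.
Gbp5 (chr3:142496749-142496798, plus strand): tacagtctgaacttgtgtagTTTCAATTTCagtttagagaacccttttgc
Irgm1 (chr11:48871415-48871464, minus strand): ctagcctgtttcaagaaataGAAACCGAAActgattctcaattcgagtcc
Isg15 (chr4:156200855-156200904, minus strand): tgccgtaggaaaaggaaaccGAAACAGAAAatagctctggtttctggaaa
Ifit1 (chr19:34640784-34640833, plus strand): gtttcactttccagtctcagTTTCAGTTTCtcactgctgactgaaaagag
Rsad2 (chr12:26456543-26456592, minus strand): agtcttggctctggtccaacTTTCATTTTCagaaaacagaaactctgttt
Bst2 (chr8:71537567-71537616, minus strand): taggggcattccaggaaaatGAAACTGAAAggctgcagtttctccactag
H2-T22 (chr17:36042904-36042953, minus strand): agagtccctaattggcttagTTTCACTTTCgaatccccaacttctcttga
B2m (chr2:122147528-122147577, plus strand): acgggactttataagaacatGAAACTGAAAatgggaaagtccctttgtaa

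Gbp5 and Irgm1 fell by 2.0 and 1.23, Isg15, Ifit1 and Rsad2 were not called in the fit of all libraries, and Bst2, H2-T22 and B2m rose by 1.66, 1.63 and 0.97. Stretches were printed only for genes with a match, so its presence in each course follows from the choice. H2-T22 and B2m come from the MHC class I list, in which 5 of 19 promoters held a match (26.3%). A match is a description of the sequence, not of binding.

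**Figure D3:**
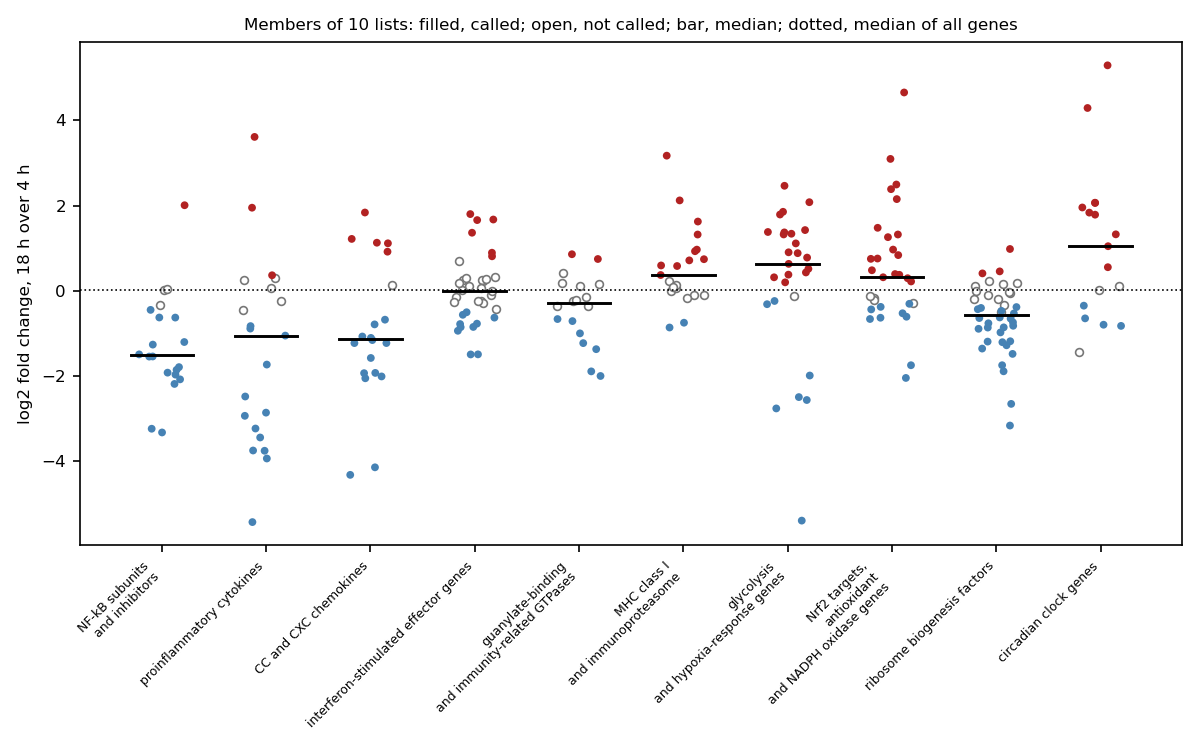
Each point is a tested member of 1 of 10 gene lists, with its log2 fold change of 18 h over 4 h in labelled-KO libraries, filled where called (red higher, blue lower) and open where not; bars are list medians and the dotted line is the median of all genes. NF-kB genes lie below 0 (median -1.52), interferon-stimulated genes around 0 (median -0.01) and clock genes above (median 1.05).

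Factors that drive interferon responses moved in both directions. Of 22 regulatory and STAT factors and receptors, 6 rose and 10 fell (median -0.20), against 33.3% and 32.1% of all genes. Irf7, the amplifier of interferon alpha production, went from 1243, 1207 and 1416 CPM to 3478, 3006 and 3597 CPM (log2 fold change 1.38, SE 0.34, adjusted p = 0.0011), and Stat2 rose by 0.82. Irf8, a lineage factor of macrophages, held 1252, 1093 and 1379 CPM at 4 h and 77.7, 75.9 and 85.5 CPM at 18 h and fell below 0 h (log2 fold change -3.96, SE 0.1, adjusted p = 7.5e-18). Irf1 fell from 2353, 2027 and 2422 CPM to 414, 339.7 and 419 CPM, and Stat5a from 458, 414 and 488 CPM to 31.2, 26.9 and 32.9 CPM.

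The 2 enzymes that compete for arginine behaved differently. Nos2 (NM_010927, chromosome 11, 78920787 to 78960226 on mm10), the inducible nitric oxide synthase, was not called, with 854, 774 and 971 CPM at 4 h and 716, 552 and 900.5 CPM at 18 h and overlapping groups (log2 fold change -0.26, adjusted p = 0.45). Arg1 (NM_007482, chromosome 10, 24915207 to 24927470 on mm10), the arginase of alternatively activated and late LPS macrophages, stood at 0.637, 0 and 0.255 CPM at 4 h and 11.2, 27 and 29.9 CPM at 18 h, and the lowest of its 18 h libraries was number 2 (log2 fold change 6.25, SE 0.54, adjusted p = 1.7e-09). The 2 enzymes that rebuild arginine from citrulline rose, Ass1 from 9.77, 10.9 and 11.2 CPM to 52.6, 72.6 and 59.5 CPM and Asl (1.04, SE 0.11). Acod1, which makes the antimicrobial metabolite itaconate, fell from 8965, 8779.8 and 8799.9 CPM to 4804, 4436 and 4064 CPM (log2 fold change -1.0, SE 0.41, adjusted p = 0.039). Its change was -1.05 to -0.93 and not called when any 1 of the 6 libraries was left out, and -0.89 with upper-quartile scaling. In all 4 of these 14 genes rose and 6 fell, against 33.3% and 32.1% of all genes, the falls including Kynu of the kynurenine pathway (-2.73).

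In the prostaglandin pathway the first enzyme fell while the last rose. Ptgs2, the inducible cyclooxygenase, held 1376, 2118 and 1659 CPM at 4 h and 494, 559 and 447 CPM at 18 h (log2 fold change -1.78, SE 0.3, adjusted p = 2.3e-05), and the constitutive Ptgs1 fell from 26.1, 22.2 and 25.4 CPM to 0.871, 0.525 and 1.49 CPM. Ptges, the synthase that makes prostaglandin E2 from their product, held 90.6, 82.2 and 95.6 CPM at 4 h and 367, 423 and 393 CPM at 18 h (log2 fold change 2.14, SE 0.16, adjusted p = 1.5e-10). Hpgd, which degrades prostaglandins, fell to 0.261, 0.175 and 0.0711 CPM from 6.16, 4.24 and 6.76 CPM. Ltc4s, the leukotriene C4 synthase, kept 1 count at 18 h against 85 at 4 h, a ratio of 91.6 with a 95% counting interval of 16.0 to 3660. Of the 15 genes 4 rose and 8 fell, against 33.3% and 32.1% of all genes. The other rises were of the receptors Ptgir (1.68), Cysltr1 (1.43) and Ptger2 (named after its values were seen, 1.31).

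Of 15 acute phase and host defence genes 4 rose and 4 fell (median 0.08), shares below those of all genes. Saa3 (NM_011315, chromosome 7, 46711998 to 46719615 on mm10), a serum amyloid A protein of macrophages, held 17.9, 3.06 and 4.67 CPM at 0 h and 649, 755 and 704 CPM at 4 h and 6544, 8210.3 and 7539 CPM at 18 h (log2 fold change 3.40, SE 0.67, adjusted p = 1.5e-04). Lcn2, the siderophore-binding lipocalin, went from 63.4, 45 and 60.2 CPM to 236, 286 and 351 CPM. Lcn2 is also 1 of 17 neutrophil and granulocyte precursor markers, of which 11 were tested, 2 rose and 1 fell (1 rose under 8 of 18 alternatives, among them without number 2 or 3 at 4 h and without number 3 or 4 at 18 h), and which summed to 395.8 to 487.3 CPM at 4 h and 625.3 to 761.3 CPM at 18 h with Lcn2 included. Of the defining members Mpo, Elane, Prtn3 and Ctsg reached at most 0.212 CPM in any of the 6 libraries and Ly6g at most 0.261 CPM. The part of these markers in the results was not tested. Marco, a scavenger receptor that binds bacteria, was higher in every 18 h library than in any at 4 h but varied widely. It held 34, 69.9 and 19.3 CPM at 4 h and 313, 792 and 184 CPM at 18 h, with number 3 highest and number 4 lowest at both times. Clec4e, the receptor Mincle (-1.22, SE 0.23), Serpina3f (-1.21, SE 0.15) and Chil1 (-1.70, SE 0.37) were among the falls.

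Complement and coagulation genes fell more often than they rose, 13 against 4 of 26, beside 32.1% of all genes lower and 33.3% higher. Cfb, factor B of the alternative pathway, rose from 172, 175 and 205 CPM to 1344, 1261 and 1451 CPM (log2 fold change 2.88, SE 0.41, adjusted p = 2.4e-06). The fibrin-stabilising F13a1 held 354, 349 and 395 CPM at 4 h and 5.83, 9.46 and 6.33 CPM at 18 h.

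Among genes of energy metabolism, those of glycolysis rose more often than they fell. Of 27 glycolytic and hypoxia-response genes 19 rose and 7 fell (median 0.63), against 33.3% and 32.1% of all genes. Pkm, the last enzyme of glycolysis, went from 449, 451 and 461 CPM to 2134, 2631 and 2748 CPM (log2 fold change 2.46, SE 0.1, adjusted p = 8.1e-15), and Aldoa, Tpi1, Pgk1 and Eno1, named after their values were seen, rose by 1.37, 1.42, 1.32 and 1.38. Vegfa, the vascular growth factor, recovered from 23.3, 22.3 and 28 CPM to 88.8, 79 and 99.5 CPM, and Egln3, a hypoxia-induced prolyl hydroxylase, rose by 2.08. The transporters Slc16a1, for lactate, and Slc2a6 fell. Slc16a1 held 284, 268 and 309 CPM at 4 h and 4.7, 6.04 and 9.39 CPM at 18 h (log2 fold change -5.40, SE 0.21, adjusted p = 4.4e-15) and Slc2a6 fell by 2.76. Ndrg1, though induced by hypoxia in many cells, fell as well (-2.56, SE 0.17).

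Citric acid cycle enzymes fell in 13 cases and rose in 6 of 27, against 32.1% and 33.3% of all genes. The largest falls were of Idh2, Suclg2 and Idh1. Idh1, the cytosolic enzyme, held 323, 356 and 368 CPM at 0 h, then 103, 87.5 and 102 CPM at 4 h and 42.6, 44.2 and 44.2 CPM at 18 h (log2 fold change -1.16, SE 0.1, adjusted p = 7.6e-10). Idh2, the mitochondrial NADP enzyme, fell from 37.4, 31.2 and 34.6 CPM to 3.05, 2.54 and 4.34 CPM, and Suclg2 from 13.7, 7.61 and 14.7 CPM to 2.52, 3.42 and 2.7 CPM. Sdhb, a subunit of succinate dehydrogenase, rose from 42.4, 39.7 and 34.9 CPM to 84.1, 71.5 and 84.1 CPM, Mdh2 rose by 0.65, and Me1, the NADPH-producing malic enzyme, by 2.45. Of 35 nuclear-encoded respiratory chain subunits 6 were higher and 11 lower, and the median of this list and of the citric acid cycle list was -0.15. The larger falls among them were of Uqcrfs1, the Rieske protein (-1.41, SE 0.13), Atp5a1 of the ATP synthase (-1.09, SE 0.08) and Cox4i1 (-0.72, SE 0.1).

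Among lipid genes, those of synthesis fell more often than they rose, against 32.1% of all genes lower and 33.3% higher. Of 31 genes of cholesterol and fatty acid synthesis 14 fell and 6 rose, with Elovl6, a fatty acid elongase, at 9.03, 6.41 and 11.3 CPM at 4 h and 0.435, 0.263 and 0.356 CPM at 18 h, Fdft1, the squalene synthase, at 152, 138 and 144 CPM at 4 h and 46.5, 34.1 and 41.7 CPM at 18 h and Idi1 at -1.80. Lss, lanosterol synthase (2.15, SE 0.33), Mvk, mevalonate kinase (1.33, SE 0.26) and Hsd17b7 (1.14, SE 0.32) rose, so steps of 1 pathway moved in opposite directions. Of 28 genes of cholesterol efflux and lipid handling 9 rose and 12 fell (median -0.17), with a share of rises near that of all genes. Nr1h3, the oxysterol receptor LXR alpha, rose from 19.8, 17.5 and 14.3 CPM to 90.2, 73.3 and 67.2 CPM, above its 0 h level (log2 fold change 2.17, SE 0.2, adjusted p = 4.3e-09). Ch25h, which makes the antiviral 25-hydroxycholesterol, rose from 14.9, 23.8 and 25.8 CPM to 73.6, 46.9 and 67.4 CPM, and the lipid-sensing receptor Ppard by 2.26. Mgll, a monoglyceride lipase (-4.28, SE 0.45), the fatty acid-binding Fabp4 (-2.77, SE 0.24) and Apoc2 (-1.85, SE 0.22) fell.

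Of 31 antioxidant genes, targets of the factor Nrf2 and NADPH oxidase genes, 18 rose and 9 fell (median 0.32), against 33.3% and 32.1% of all genes. Hmox1 (NM_010442, chromosome 8, 75093618 to 75100593 on mm10), the heme-degrading enzyme, was at 443, 482 and 499 CPM at 0 h, dipped to 157, 129 and 151 CPM at 4 h and rose to 3448, 3674 and 3896 CPM at 18 h (log2 fold change 4.65, SE 0.15, adjusted p = 3.7e-16). Srxn1, sulfiredoxin (3.10, SE 0.14), and Gclm, a subunit of the glutathione-synthesising ligase (2.49, SE 0.14), had the same course. Gpx3 (-2.05, SE 0.24) and Gpx1 (-1.75, SE 0.11), glutathione peroxidases, fell, and so did Cybb, the catalytic subunit of the phagocyte oxidase, from 5009, 5213 and 5056 CPM to 2948, 3613 and 3089 CPM.

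Slc40a1, the iron exporter ferroportin, held 842, 931 and 1068 CPM at 0 h, 31.2, 18.8 and 27.6 CPM at 4 h and 200.1, 201 and 216 CPM at 18 h (log2 fold change 2.99, SE 0.22, adjusted p = 1.2e-10), and Slc11a1, the phagosomal metal transporter, rose as well (1.68, SE 0.11). The metal-binding metallothioneins fell, Mt1 from 139.5, 107 and 112 CPM to 10.3, 16 and 10.8 CPM and Mt2 from 142, 133 and 136 CPM to 3.74, 3.68 and 5.83 CPM (log2 fold change -4.94, SE 0.16, adjusted p = 2.3e-16). Of the 19 genes 4 rose and 10 fell, against 33.3% and 32.1% of all genes.

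Lysosomal genes fell in 22 of 39 cases and rose in 11 (median -0.36), against 32.1% and 33.3% of all genes. Hexa, a subunit of beta-hexosaminidase, held 942, 828 and 932 CPM at 4 h and 236, 244 and 245 CPM at 18 h, Man2b1, the lysosomal alpha-mannosidase, fell by 2.1, and Atp6v0d2, a proton pump subunit, held 100.4, 111 and 91.2 CPM at 4 h and 13.4, 14.4 and 11.2 CPM at 18 h (log2 fold change -2.96, SE 0.29, adjusted p = 1.1e-08). Tfeb, the factor that drives lysosomal genes, rose from 1.49, 2.17 and 1.34 CPM to 11.9, 9.81 and 13.5 CPM, but had been at 28.4, 31.9 and 26.3 CPM at 0 h. The hydrolase Gla rose (1.27, SE 0.11).

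Genes of antigen presentation through MHC class I rose in 11 of 21 cases and fell in 2 (median 0.37), against 33.3% and 32.1% of all genes. B2m, the light chain, went from 4271, 4359 and 4744 CPM to 7862, 10261 and 7997 CPM. H2-Q6 held 64, 62.8 and 101.2 CPM at 4 h and 732, 582 and 750.3 CPM at 18 h and H2-T22 held 376, 371 and 424 CPM at 4 h and 1235, 1015 and 1363 CPM at 18 h, and H2-Q7 rose by 2.12. These nonclassical genes have close relatives that share sequence, and how shared reads were assigned is not known here. The peptide transporter Tap1 (-0.75, SE 0.15) and Nlrc5, the transactivator of class I genes (-0.86, SE 0.13), fell. In class II 5 of 10 rose and 2 fell. Ciita, the class II transactivator, fell from 10.1, 9.67 and 7.08 CPM to 0.348, 0.175 and 0.284 CPM while H2-Ab1 (1.30, SE 0.23) and H2-Aa (0.75, SE 0.26) rose, H2-Aa without a call when number 3 at 4 h (0.65) or number 4 at 18 h (0.57) was left out, and Marchf1, which ubiquitinates class II molecules, rose as well (1.37, SE 0.21).

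Costimulatory ligands fell in 12 of 21 cases and rose in 5 (median -1.13), against 32.1% and 33.3% of all genes. Cd40, the receptor through which T cells activate macrophages, named after its values were seen, went from 2720.5, 2603 and 2810.4 CPM to 184, 152 and 150.4 CPM (log2 fold change -4.06, SE 0.24, adjusted p = 3.9e-12). Icosl held 403, 389 and 345 CPM at 4 h and 19.3, 19 and 14.4 CPM at 18 h, and Tnfsf4, the ligand OX40L, fell from 32.5, 52.2 and 32.2 CPM to 2, 1.66 and 1.78 CPM. The inhibitory receptors Havcr2, which encodes TIM-3 (2.36, SE 0.21), and Cd200r1 (1.01, SE 0.14) rose, as did Slamf9 (4.58, SE 0.22). At 18 h Havcr2 and Cd200r1 stood near or below their 0 h level and Slamf9 far above it.

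Of 22 genes of the inflammasome, pyroptosis and necroptosis 9 were higher and 8 lower, near the shares of all genes. Nlrp3, the sensor primed by LPS, held 1054, 1044 and 933 CPM at 4 h and 276, 253 and 251 CPM at 18 h (log2 fold change -1.96, SE 0.1, adjusted p = 2.9e-13), and its adaptor Pycard, known as ASC, fell below 0 h, from 103, 95 and 102 CPM to 20.5, 18.7 and 19.3 CPM. Nlrc4, the inflammasome protein engaged by flagellin sensors, rose from 5.42, 3.37 and 4.21 CPM to 30.3, 28.5 and 27.1 CPM, and Nlrp1a (1.46, SE 0.2) and Gsdme (1.82, SE 0.43) rose. Of 21 Bcl2 family and death receptor genes 13 fell and 6 rose, against 32.1% and 33.3% of all genes. Fas, a death receptor, held 133, 122 and 138 CPM at 4 h and 19.8, 18 and 19.6 CPM at 18 h, the antiapoptotic Bcl2a1b, one of several near-identical copies, fell by 2.62, and the proapoptotic Pmaip1 (2.25, SE 0.2) and Bak1 (0.93, SE 0.1) and the antiapoptotic Bcl2 (1.43, SE 0.25) rose.

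Of 30 scavenger, apoptotic cell and Fc receptors 18 fell and 7 rose (median -0.72), against 32.1% and 33.3% of all genes. Mrc1, the mannose receptor, was at 957, 924 and 1092 CPM at 0 h, held 858, 689 and 813 CPM at 4 h and 18.7, 23.2 and 27.5 CPM at 18 h and was 33.9-fold lower at 18 h (log2 fold change -5.08, SE 0.19, adjusted p = 1.8e-15). Mertk, which binds apoptotic cells, went from 1024, 936 and 976 CPM to 248, 226 and 259.5 CPM, and the related Tyro3 fell to 0.0871, 0 and 0.213 CPM. Fcgr1 held 877, 838 and 993 CPM at 4 h and 2609, 2498 and 2692 CPM at 18 h (log2 fold change 1.53, SE 0.18, adjusted p = 1.3e-07), and Fcgr4 rose by 1.38. Fcgr2b, the inhibitory receptor, named after its values were seen, fell by 0.60 with groups that overlapped. It was not called with the 6 libraries alone (-0.56), without number 4 at both times (-0.53), or without number 2 at 18 h (-0.43), number 3 at 4 h (-0.41) or number 4 at 18 h (-0.46).

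Macrophage lineage genes divided evenly, 15 of 32 higher and 15 lower, against 33.3% and 32.1% of all genes. Cebpa, a factor of myeloid differentiation, held 158, 187 and 183 CPM at 0 h, 0.531, 0.217 and 0.701 CPM at 4 h and 11.7, 9.55 and 12.7 CPM at 18 h (log2 fold change 4.42, SE 0.35, adjusted p = 3.0e-10). Itgam, the integrin CD11b, rose from 491, 516 and 441 CPM to 1839, 2107 and 2038 CPM, and Aif1, known as Iba1, rose by 1.51. Csf1r, the receptor for the growth factor of these cultures, held 1986, 1694 and 1914 CPM at 4 h and 592, 566 and 565 CPM at 18 h (log2 fold change -1.70, SE 0.1, adjusted p = 2.4e-12). Gpr34, a lysophosphatidylserine receptor, fell from 10.2, 9.02 and 10.1 CPM to 0.174, 0.263 and 0.142 CPM and had been at 95.4, 107 and 131 CPM at 0 h. Tfec (-4.64, SE 0.17), Tcf4 (-1.96, SE 0.1) and Cd5l, a secreted scavenger protein (-2.42, SE 0.25), fell too.

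Cytoskeleton and adhesion genes moved in both directions. Of 45 actin-related genes 17 rose and 19 fell (median -0.05), against 33.3% and 32.1% of all genes. Coro1a, an actin-binding coronin of leukocytes, held 27.5, 31 and 26.3 CPM at 4 h and 194, 143 and 199 CPM at 18 h (log2 fold change 2.66, SE 0.2, adjusted p = 1.7e-10), and Coro1c and the myosin Myo1f returned to their 0 h levels (2.11 and 1.87 against 4 h). Marcksl1, a membrane-actin linker, held 4088, 3794 and 3929 CPM at 4 h and 397, 459 and 340.4 CPM at 18 h, Fscn1, the bundling protein fascin, held 231, 272 and 208 CPM at 4 h and 16.5, 11.7 and 21.2 CPM at 18 h, and Lima1, which stabilises filaments, held 526, 458 and 555 CPM at 4 h and 119, 135 and 131 CPM at 18 h (log2 fold change -2.0, SE 0.08, adjusted p = 1.6e-14). Piezo1 (NM_001357349, chromosome 8, 122481698 to 122551329 on mm10), a channel opened by membrane stretch, went from 438, 385 and 359 CPM to 192, 195 and 204 CPM, still above its 0 h level of 83.8, 94.8 and 89.2 CPM (log2 fold change -1.0, SE 0.11, adjusted p = 1.0e-07).

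Among 40 integrin, focal adhesion and podosome genes 14 rose and 18 fell, against 33.3% and 32.1% of all genes. Icam1, the ligand of leukocyte integrins, held 3634, 3459 and 3552 CPM at 4 h and 454, 419 and 409 CPM at 18 h (log2 fold change -3.05, SE 0.12, adjusted p = 3.6e-15), Itga4 fell from 2515, 2466 and 2379.8 CPM to 243, 334 and 226 CPM, and the kinase Src from 224, 227 and 216 CPM to 28.7, 30.8 and 37 CPM. Fermt3, the kindlin that activates leukocyte integrins, rose from 64.6, 55.6 and 59.4 CPM to 376, 357 and 381 CPM, and Pecam1 and Itgb7 rose by 3.30 and 3.23. Of 21 metalloproteinases, TIMPs and ADAMs 5 rose and 7 fell, and 8 rose without number 4 at 4 h. Mmp13, a collagenase, held 4522, 4877 and 6172 CPM at 4 h and 668, 923 and 972 CPM at 18 h (log2 fold change -2.60, SE 0.22, adjusted p = 9.3e-10), and the aggrecanase Adamts4 fell from 112, 160.3 and 104 CPM to 0.871, 1.66 and 3.41 CPM. Adam8 rose from 343, 323 and 338 CPM to 2166, 2475 and 2651 CPM, and Adam19 (2.48, SE 0.27) and Mmp19 (1.51, SE 0.16) rose. Mmp14, the membrane collagenase, was not called, with 662, 607 and 715 CPM at 4 h and 618, 662 and 711 CPM at 18 h and overlapping groups (log2 fold change 0.00).

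Of 34 replication genes 15 rose and 7 fell (median 0.36), against 33.3% and 32.1% of all genes. The licensing factor Cdt1 rose by 1.54. Rfc3 (-1.48, SE 0.15), Pola1 (-1.35, SE 0.19) and Tyms (-1.29, SE 0.22) fell. Of 40 mitosis genes 6 rose and 13 fell (median -0.35), with a share of falls near that of all genes, and most were low in these cells. Mki67, the proliferation marker, held 25.9, 31.1 and 26.7 CPM at 0 h and 215, 193 and 192 CPM at 4 h and 11, 13 and 9.39 CPM at 18 h (log2 fold change -4.17, SE 0.19, adjusted p = 4.0e-14), and Ube2c and Nusap1 fell by 3.51 and 2.61. Cdk1, Kif23 and Hmmr rose (1.16, 1.61 and 1.42). Of 26 genes of G1 and p53 control 12 rose and 6 fell, against the same shares of all genes. Ccnd1, cyclin D1, held 33.2, 36.9 and 31.9 CPM at 4 h and 277, 236 and 265 CPM at 18 h (log2 fold change 2.93, SE 0.09, adjusted p = 2.3e-16), while the inhibitor Cdkn1a, known as p21, held 3553, 3755 and 3289 CPM at 4 h and 370.1, 401 and 424 CPM at 18 h (log2 fold change -3.15, SE 0.14, adjusted p = 2.8e-14).

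Ribosome biogenesis factors, which build ribosomes in the nucleolus, fell in 25 of 40 cases and rose in 3 (median -0.58), against 32.1% of all genes lower and 33.3% higher. Rrs1 held 38, 44.6 and 35.3 CPM at 4 h and 4.7, 4.38 and 4.05 CPM at 18 h (log2 fold change -3.16, SE 0.17, adjusted p = 6.2e-13), Noc4l held 34.2, 34.2 and 37.8 CPM at 4 h and 5.75, 5.43 and 5.69 CPM at 18 h, and Nhp2, a subunit of the pseudouridine-forming complex, fell by 1.89. The 3 rises were of Rrp1b, Heatr1 and Polr1a at 0.98, 0.41 and 0.46, and without number 4 at 4 h Rrp1b (0.84) and Heatr1 (0.33) were not called. Rrp1b was also not called with limma-voom (0.92) or without number 2 at 18 h (0.83), and Heatr1 without number 4 at both times (0.39). Mitochondrial ribosomal proteins were split, with 9 of 34 higher and 9 lower, or 15 and 5 with upper-quartile scaling and 5 lower with the 6 libraries alone or without number 4. Constitutive proteasome subunits rose in 17 of 31 cases and fell in 5 (3 with upper-quartile scaling or without number 4), by small amounts (median 0.23). The ATPase subunit Psmc1 held 47.9, 54.5 and 50.2 CPM at 4 h and 128, 125 and 118 CPM at 18 h (log2 fold change 1.28, SE 0.07, adjusted p = 1.3e-12), and Psma1 rose by 0.85.

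In the protein folding and integrated stress list 16 of 28 rose and 7 fell, against 33.3% and 32.1% of all genes. Ddit3, which encodes the stress factor CHOP, held 7.43, 5.43 and 9.18 CPM at 4 h and 93.8, 100.7 and 102 CPM at 18 h (log2 fold change 3.72, SE 0.2, adjusted p = 6.6e-13), and its target Trib3 (4.72, SE 0.48) and Sesn2 (3.45, SE 0.25) rose. The chaperone Hspa5, known as BiP, fell from 2176, 2251 and 2296 CPM to 1310.1, 1263 and 1245 CPM, Pdia6 fell by 0.97, and Ppp1r15a, which ends the stress-induced block of translation, held 307, 291 and 308 CPM at 4 h and 32.7, 28.1 and 34 CPM at 18 h.

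The clock genes gave the highest median of the 41 functional lists, 1.05, with 10 of 17 higher and 4 lower (all genes, 33.3% and 32.1%), or 2 lower with the 6 libraries alone, without number 3 at 18 h or without number 4 at both times. At 4 h 13 of these genes had been below 0 h and 2 above. Per1 held 18.7, 25.5 and 18 CPM at 0 h and 0.319, 1.09 and 0.892 CPM at 4 h and 32.7, 29 and 31.2 CPM at 18 h (log2 fold change 5.29, SE 0.28, adjusted p = 4.7e-13), and Per2 held 0.212, 0.435 and 0.446 CPM at 4 h and 7.92, 6.74 and 7.82 CPM at 18 h (log2 fold change 4.29, SE 0.32, adjusted p = 1.7e-10). Ciart rose by 2.07, and Clock (-0.65), Cry1 (-0.82) and Per3 (-0.80) fell, Per3 without a call when number 2 at 4 h (-0.62), number 3 at 18 h (-0.57) or number 4 at 18 h (-0.65) was left out. The labels do not give the time since the last change of medium, so the duration of LPS and the time in culture cannot be told apart for these or any other genes.

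**Figure D4:**
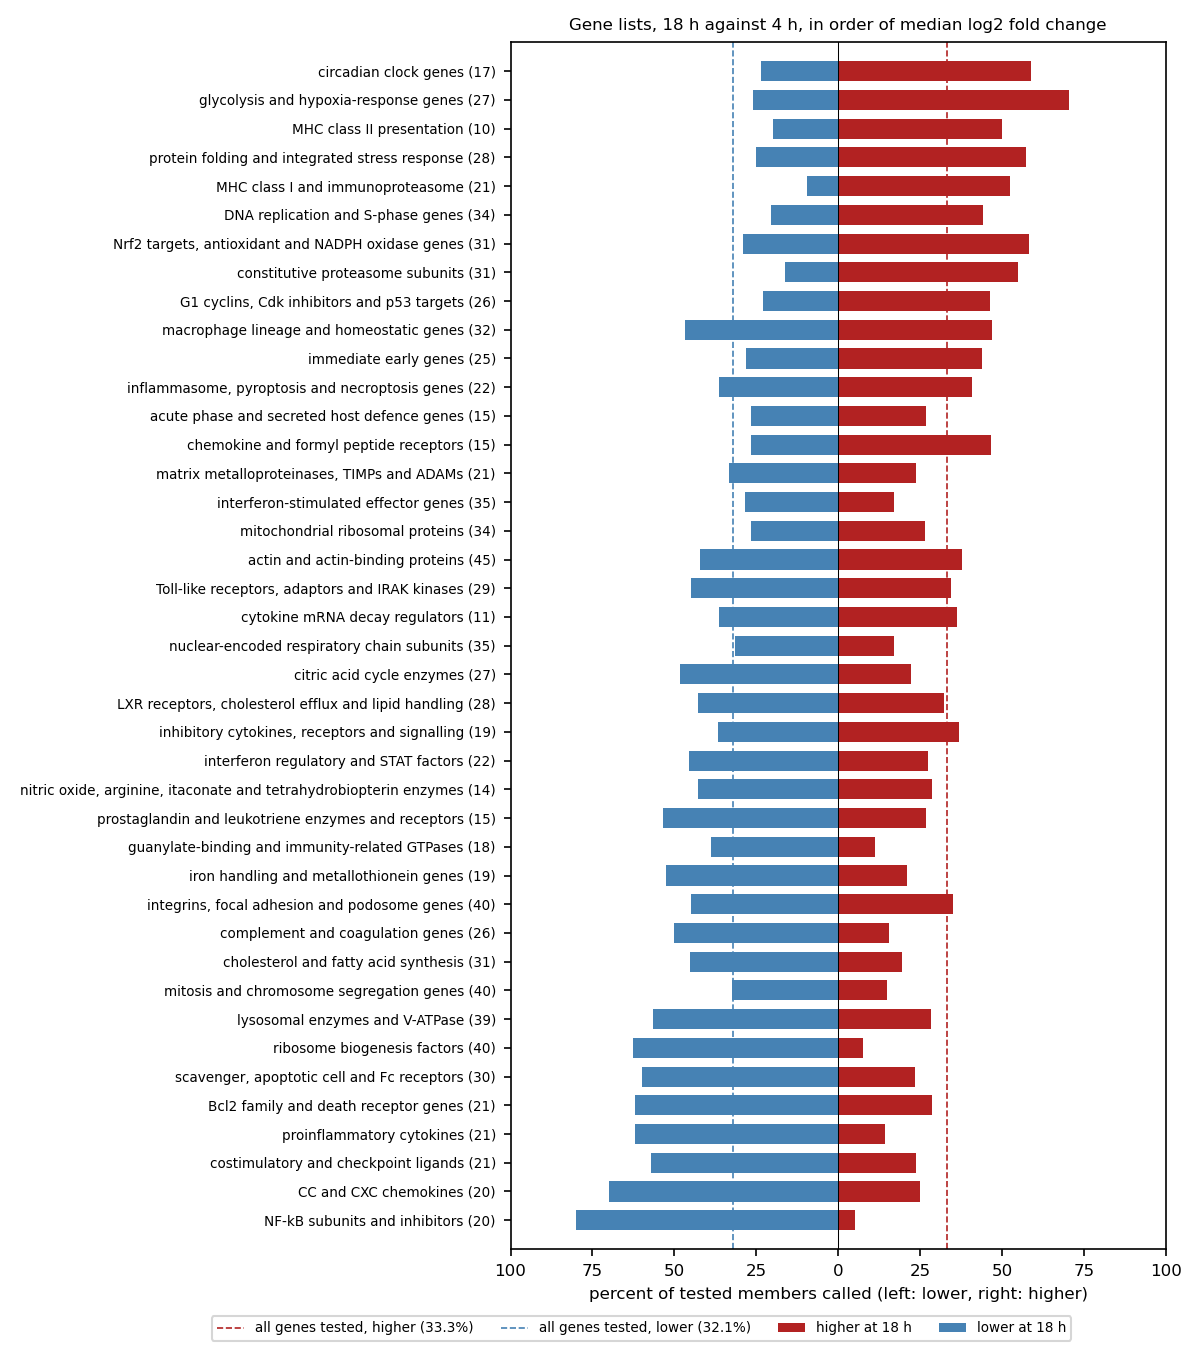
Bars give, for 41 functional gene lists, the percent of tested members called lower (blue, to the left) and higher (red, to the right) at 18 h than at 4 h, with the number tested in brackets; dashed lines mark the share of all genes, 32.1% lower and 33.3% higher. Lists are in order of their median log2 fold change, from clock genes at the top to NF-kB genes at the bottom.

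The change from 4 h to 18 h can be set beside the same change in WT libraries (4 at each time), which share none with the labelled KO. In WT 8981 of the same genes (71.7%) were called, 37.2% higher and 34.5% lower. Both genotypes called 7079 genes in the same direction, which is 86.4% of the labelled-KO calls and 78.8% of the WT calls, and 92 in opposite directions. The log2 fold changes correlated at 0.885 across genes, which are not independent replicates. The difference itself, labelled KO minus WT, was called for 1358 genes (10.8%), 784 above 0 (6.26%) and 574 below 0 (4.58%), and for 392 of them it was at least 2-fold. With upper-quartile scaling 46.3% of the called differences were above 0, against 57.7% here, so the balance of signs depends on the scaling. Without number 2 of the labelled KO at 4 h the calls numbered 871.

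Several inflammatory genes fell less in the labelled KO. Nos2 changed by -0.26 there and by -2.46 in WT, a difference of 2.20 (SE 0.4, adjusted p = 0.0012). For Ptgs2 the changes were -1.78 and -4.04 (difference 2.26, adjusted p = 9.3e-04), for Il6 -2.48 and -4.58 (difference 2.09, adjusted p = 1.8e-04), and for Il1b 0.06 and -1.26 (difference 1.32, adjusted p = 0.005). With DESeq2 the Nos2 difference was as large but was not called (2.22, adjusted p = 0.098). The difference was not called for Tnf (-0.19), Il12b (0.35), Il10 (1.13), Saa3 (1.06) or Arg1 (-0.79). The targeted gene itself differed, since Nr4a1 fell in WT by 1.48 on the log2 scale (difference 3.12, adjusted p = 0.0043). WT number 1 at 4 h stood at 7.25 CPM against 1.30 to 2.16 CPM in the other 3, and without it the difference was 2.19 (adjusted p = 4.9e-04).

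The genes picked for the largest differences among those called gave more examples of both signs. Ch25h rose in the labelled KO (1.53) and fell in WT (-1.03), a difference of 2.57. Fzd1, a Wnt receptor, and Tmtc2 were not called in the labelled KO, at 44.5, 54 and 44.5 CPM and then 44.7, 37.7 and 53.6 CPM for Fzd1, and fell in WT by more than 2 on the log2 scale (differences 2.63 and 2.58). Cx3cl1, which encodes fractalkine, Pakap and Nr4a3 fell in both, by less in the labelled KO (differences 3.07, 2.72 and 2.49). Cx3cl1 and Pakap were ordered as the stromal markers at 18 h, with Pakap at 1.39, 5.6 and 15.4 CPM, and the part of those markers was not tested. Without number 4 at 18 h neither difference was called (1.98 for Cx3cl1, adjusted p = 0.19, and 1.59 for Pakap, adjusted p = 0.26). In the opposite direction Eps8, an actin-capping protein, held 9.13, 7.93 and 8.86 CPM at 4 h and 0.696, 0.788 and 0.782 CPM at 18 h and did not change in WT beyond -0.09 (difference -3.42, adjusted p = 1.1e-05). Lima1 fell in the labelled KO (-2.0) and rose slightly in WT (0.27; difference -2.26, adjusted p = 4.2e-11). Slc16a1, Tnfrsf10b, Arhgap19 and Nav2 had differences of -1.85, -2.40, -1.80 and -1.61.

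By list, the differences between genotypes were one-sided in some cases. Of 25 immediate early genes 12 differed, all with a higher change in the labelled KO, among them Fos (0.97), and none lower, against 6.26% of all genes higher and 4.58% lower. Their count was 8 to 14, with none lower, under the 24 other settings. Of 20 NF-kB genes 7 differed and all 7 were higher, but the count was 3 without labelled-KO number 2 or 3 at 4 h, labelled-KO number 3 at 18 h, or WT number 2 or 4 at 18 h. Of 40 ribosome biogenesis factors 17 were lower and none higher, among them Rrs1 (-0.69) and Nhp2 (-0.57). That count also rested on single libraries, since it was 8 without number 3 at 4 h, 6 without number 4 at 18 h and 3 without number 4 at both times. Interferon-stimulated genes fell in 19 of 35 cases and rose in 6 in WT (median -0.55), and the difference from the labelled KO was called for 2 of them. That count was 4 with DESeq2, and 1 without any 1 library other than labelled-KO number 2 at 18 h, WT number 3 at 18 h or WT number 4 at 4 h.

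**Figure D5:**
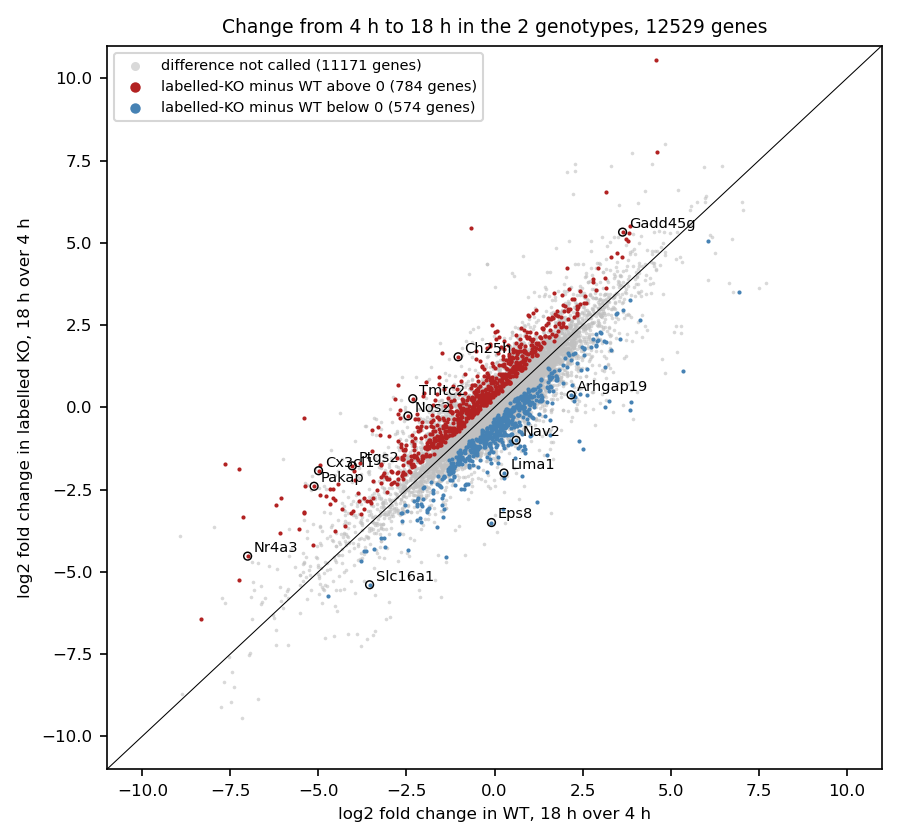
Each point is 1 of 12529 genes, with the log2 fold change of 18 h over 4 h in WT libraries on the x axis and in labelled-KO libraries on the y axis, and the line marks equal change. Red points (784) and blue points (574) are genes whose difference between genotypes was called, above and below 0.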

How the data were processed

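Per the labels' protocols, RNA was taken up on RNeasy columns with DNase on the column and sequenced from KAPA mRNA HyperPrep libraries. The authors used CASAVA 1.8.2, HISAT2 2.1.0 and the mm10 genome, per the submitters' processing notes. The authors deposited 1 table of estimated counts per transcript, unnormalized and in steps of 0.5. For counting tool and strand the sources used here give nothing. The design had assumed whole counts, so values were rounded, with 0.5 upward. Of 42361 transcripts, 42203 were named through RefSeq and 65 through GENCODE, and 93 with no gene name (0.416% to 1.149% of counts in the 6 libraries) were left out. For each of 25067 genes the transcript of highest mean count was used. In the 8193 genes with several, the second held a median 0.992 of the first's count.

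edgeR 4.0.16 fitted 6 group means to all 21 libraries with TMM scaling and filterByExpr (12529 genes), with quasi-likelihood tests and Benjamini-Hochberg adjustment over all genes (threshold 0.05). The script was tested on simulated data. CPM use TMM library sizes, and are compared within a gene only. Alternatives included DESeq2 1.42.0 and limma 3.58.1. Gene lists, members and tests were chosen with earlier results of these data known. Genes were named by a rule on called genes: in each list up to 3 rises and 3 falls of largest log2 fold change (mean of at least 1 CPM), up to 12 each way over all genes (a mean of 5 CPM or more and no overlap between groups), up to 6 each way by difference in CPM, up to 6 of each sign by difference from WT, and 16 genes fixed by name. Clone-named genes, pseudogenes and antisense genes were left out, except within lists. Some genes that the rule picks are not reported here. Other names are said to be chosen after their values were seen. Counting intervals are exact at 95% and cover counting error only, and a count of 0 is set to 3.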

Additional observations from a re-analysis of the deposited data

Results flagged for a closer look

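The change from 4 h to 18 h was tested for a difference between labelled-KO and WT libraries, and for 69 of the genes described above the difference passed in edgeR, with p-values adjusted over all genes. Each value below is the log2 fold change in labelled-KO minus that in WT, and a positive value can be a greater rise or a smaller fall. None of these differences was weighed against a cause. Of the 69, 31 were not called under at least 1 of 24 alternatives. The call was lost under 20 alternatives for Plk3, 16 for Rel, 15 for Pakap and Rrs1, 13 for Fth1, 12 for Ifih1, 11 for Adam8 and Marchf1, 9 for Irak3, Tcf4 and Tgtp1, 8 for H2-Ab1 and 6 for Cxcl11. It was lost under 5 for Asap3, Cx3cl1, Idh1, Il18, Il27, Nhp2 and Suclg2, under 4 for Csf1r and Per1, under 3 for Slamf9, under 2 for Cx3cr1, Gpx1 and Tpi1, and under 1 for Fcgr4, Nav2, Nos2, Pkm and Pmaip1.

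Immediate early and NF-kB genes differed at 3.12 for Nr4a1, 2.49 for Nr4a3, 0.97 for Fos, 0.54 for Tnfaip3, 0.40 for Rel and 0.94 for Irak3. Cytokines and their receptors differed at 2.09 for Il6, 1.32 for Il1b, 1.02 for Il1rn, 0.79 for Il27, 0.67 for Il18, 1.34 for Osm and 1.23 for Il13ra1. Chemokines and their receptors differed at 3.07 for Cx3cl1, 1.10 for Cxcl2, 1.12 for Cxcl11, 0.88 for Ccr1, 1.06 for Ccrl2 and -1.92 for Cx3cr1. The interferon-related genes Ifih1 (0.74), Gbp5 (1.14) and Tgtp1 (1.09) were above 0 and Irf8 (-0.74) below. For the inflammatory enzymes the values were 2.20 for Nos2, 2.26 for Ptgs2 and 0.84 for Ptges, and the serpin Serpina3f differed at 1.43.

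Metabolic genes were of both signs. Ch25h (2.57), Vegfa (1.16), Pkm (0.53), Tpi1 (0.44) and Fth1 (0.44) were above 0. Slc16a1 (-1.85), Idh1 (-0.45), Idh2 (-1.25), Suclg2 (-0.93) and Gpx1 (-0.55) were below.

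Surface and lineage genes differed at 1.04 for H2-Ab1, 0.90 for Marchf1, 1.52 for Havcr2, 0.95 for Slamf9, 0.76 for Fcgr4, 0.43 for Tcf4, -0.47 for Csf1r and 2.63 for Fzd1. Genes of cell death and the inflammasome differed at 0.79 for Nlrp3, -0.77 for Pycard, 1.08 for Pmaip1, 0.48 for Bak1 and -2.40 for Tnfrsf10b. Cytoskeleton and matrix genes differed at -2.26 for Lima1, -3.42 for Eps8, 1.29 for Mmp13, 0.63 for Mmp14, 0.53 for Adam8, 1.36 for Thbs1, 1.89 for Asap3, -1.80 for Arhgap19 and -1.61 for Nav2. Rhov had a fitted difference of 5.99, which rests on a labelled-KO group with no counts at 4 h and is no measure of size.

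Growth and clock genes differed at 0.84 for Ccnd1, 1.69 for Gadd45g, 1.67 for Plk3, 1.47 for Per1, -0.69 for Rrs1 and -0.57 for Nhp2. The remaining called differences were 2.72 for Pakap, 2.58 for Tmtc2 and 0.62 for Clic4.

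One WT library at 4 h stood apart from the other 3 in Nr4a1, at 7.25 CPM, by more than a test for a single outlier allows in a group of 4. Chance flags about 1 group in 20 in this way.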

How the results depend on the processing

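The count of genes called between 18 h and 4 h moved by less than 1.5 times under each of 18 alternatives. It was 8117 with DESeq2, 7921 with limma-voom, 7364 with the 6 libraries alone and 7298 without number 4 at both times. Leaving out 1 library at a time gave 7757 to 7982 called, 3936 to 4063 higher and 3779 to 3919 lower. Of 282 genes tested by name 256 kept their direction and their side of the threshold under every alternative that gave an adjusted p (DESeq2 gave none for Egr1). The direction of 6 that were not called turned under some. Il1b was at -0.02 without number 2 at 4 h, -0.02 without number 4 at 4 h and -0.09 without number 3 at 18 h, and Rsad2 at 0.01 with upper-quartile scaling. Mmp14 was at -0.03 with DESeq2 and with median-of-ratios scaling, -0.05 without number 3 at 4 h and -0.04 without number 4 at 18 h. Fzd1 was at 0.04 with upper-quartile scaling, 0.03 without number 3 at 4 h and 0.05 without number 3 at 18 h. Cyld was at -0.02 with DESeq2, with median-of-ratios scaling and without number 4 at both times, -0.00 without number 2 at 4 h and -0.03 without number 4 at 4 h. Otulin was at -0.01 with DESeq2, -0.02 without number 3 at 4 h and -0.04 without number 3 at 18 h. Over the libraries left out in turn the highest values were 0.23 for Il1b, 0.07 for Cyld, 0.10 for Otulin and 0.07 for Mmp14, and the lowest for Fzd1 was -0.21. The cause was not tested.

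The difference from WT depended more on single libraries. Leaving out 1 library gave 871 to 1457 called, 510 to 821 above 0 and 361 to 636 below, with the lowest counts without labelled-KO number 2 at 4 h. Without number 4 at both times 702 were called, 438 above 0 and 264 below, with fewer samples in the fit. Of the 69 genes with a called difference, 38 kept it under all 24 alternatives and 31 lost it under at least 1.

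The replicate numbers were not taken as pairs. Deviations from the group means correlated at 0.403, 0.0956 and 0.502 for same-numbered libraries at 4 h and 18 h, and at -0.476 to 0.114 for other pairs. With a replicate block 8262 genes were called, 4185 higher and 4077 lower, and 7775 with the 6 libraries alone. With the block on the 6 libraries Nos2 (-0.25, adjusted p = 0.027) was called lower, Isg15 and Ifit1 were called as without the block, and 10 stromal markers were called higher and 3 lower. Interferon-stimulated genes called higher numbered 7 with the block and 14 with the block on the 6 libraries, against 6, and those with a called difference from WT numbered 5 with the block, against 2. Depth limits genes of few counts, such as Ltc4s and Gprc5c, whose ratios have wide counting intervals.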
